A study of Mus musculus with 24 samples.

Results

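The cytosolic ribosomal protein genes are the 87 protein-coding genes, of 78298 genes in the deposited table, whose names follow the nomenclature of ribosomal proteins of the large subunit (Rpl, Rplp), of the small subunit (Rps) or Rpsa. Pseudogenes, the Rps6k kinases and names ending in rt were left out. Of these 87 genes, 46 encode core proteins of the large subunit and 31 encode core proteins of the small subunit. A further 9 are paralogues or retrogenes of core genes, and Rps19bp1 encodes a protein that binds a ribosomal protein and is no part of the ribosome. The members were chosen by name and biotype alone, but the family was selected on TPM differences between groups already seen in these same libraries. Its fold changes are therefore given as a description of the members, and large against small subunit is a description with no test.

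The cytosolic ribosome is built from ribosomal RNA and about equal numbers of copies of most core proteins, so its protein genes are expressed at high levels in nearly every cell and tend to move as a block. Their mRNAs begin with a 5′ terminal oligopyrimidine (TOP) tract, a cytosine followed by a run of pyrimidines, through which mTORC1 and the RNA-binding protein LARP1 control their translation and stability. In lung, as in other tissues, growth signals and immune activation act on ribosome production through MYC and RNA polymerase I as well. Several core genes have tissue-restricted paralogues, such as Rpl3l in striated muscle and Rpl10l and Rpl39l in testis.

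RNA was measured in whole lung of 24 wild type C57BL/6 mice aged 7 weeks. AEAA, a water extract of Artemisia argyi (a mugwort), was given in the drinking water at 0.5 mg/mL (AEAA low-dose, n = 5), 1 mg/mL (AEAA mid-dose, n = 5) or 1.5 mg/mL (AEAA high-dose, n = 5) for 28 days, and bacterial lipopolysaccharide (LPS) at 5 mg/kg was placed in the trachea on day 29. The LPS group (n = 5) had the same challenge without extract, and the Control group (n = 4) had saline, per the treatment protocol, although a sample label gives the LPS challenge for Control mice too. Lungs were taken 8 h later, and ribosomal RNA was removed before sequencing. The labels give male sex, but Xist was at 51.8 to 95.5 TPM in LPS and 25.8 to 52.8 TPM in Control lungs, while Ddx3y stayed at or under 0.02 TPM in every library. Values are TPM, a length-normalized level in which each library has the same total. Counts were not used here, so sequencing depth is unknown and no counting interval can be stated.

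The starts of 10 members that the results turn on are shown first, since the TOP tract at the start is the sequence feature that defines the family's shared control. They come from RefSeq (build GRCm38.p6) and are read 5′ to 3′ on the sense strand, which has the letters of the mRNA. Each covers 30 bases, of which the last 15 begin at the annotated start. Capitals mark the longest unbroken stretch of C and T in that window. On the TPM as deposited, the first 5 members were among the lowest fold changes after LPS or the highest with the extract. On the same TPM, the next 4 were the large increases after LPS, and Rpl13a departed from the family at the low dose. Neither those 4 increases nor the fall of Rpl13a passed after the scaling of libraries given below.
Rplp2 (chr7:141447636-141447665, plus strand): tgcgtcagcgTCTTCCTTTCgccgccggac
Rps21 (chr2:180257364-180257393, plus strand): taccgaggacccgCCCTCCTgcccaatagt
Rpl35a (chr16:33056467-33056496, plus strand): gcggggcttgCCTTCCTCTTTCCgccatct
Rpl38 (chr11:114668565-114668594, plus strand): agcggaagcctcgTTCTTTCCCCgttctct
Rpl34 (chr3:130730323-130730352, minus strand): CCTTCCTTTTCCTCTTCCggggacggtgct
Rplp0 (chr5:115559452-115559481, plus strand): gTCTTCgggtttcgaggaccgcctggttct
Rps2 (chr17:24720048-24720077, plus strand): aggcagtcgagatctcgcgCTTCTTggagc
Rpl10 (chrX:74270801-74270830, plus strand): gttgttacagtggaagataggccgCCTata
Rpl12 (chr2:32961697-32961726, plus strand): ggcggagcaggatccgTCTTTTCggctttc
Rpl13a (chr7:45128731-45128760, minus strand): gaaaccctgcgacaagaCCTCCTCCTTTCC

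Of the 87 members, 66 had a RefSeq entry, and where a gene had several starts the one with the longest stretch was used. A C and T stretch of 8 or more bases was present in the window of 25 of 57 core members (43.9%), against 13.8% of the 26959 other genes with an entry. The motif CTTTC was searched on both strands in the windows of all listed starts, and a gene counted if any of its starts held it. The motif was on the sense strand of 28.1% of core members, against 4.7% of the other genes. On the opposite strand it was in 5.26% of core members and 4.21% of the other genes. Among the sequences shown, Rpl34, Rpl35a, Rpl13a, Rplp2 and Rpl38 held stretches of 10 or more bases. Rplp0, Rps2 and Rpl10 held 5, 6 and 3, and Rps21 and Rpl12 both held 7. Of members not shown, Rpl37a and Rps28, also among the lowest fold changes after LPS, held 4 each. Rps19, the largest increase at the high dose, held 7. The members named here were picked by their values, and stretch length against direction of change was not tested over the family. An annotated start can lie some bases away from the true one, so a short stretch in the window says only that these letters are not there.

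The core genes were not measured at equal levels, although their proteins are used in about equal numbers. Mean TPM over the 24 libraries ran from 26.1 to 4057 among the 77 core genes, a 156-fold span with a median of 994 TPM. Of these, 38 averaged 1000 TPM or more and 3 averaged under 100 TPM. The highest of the small subunit were Rps27, which encodes a zinc-finger protein of the subunit, at 4057 TPM, Rps15 at 2575 TPM and Rps24 at 2503 TPM. The highest of the large subunit were Rplp1, an acidic protein of the stalk that recruits translation factors, at 3015 TPM, Rpl13a at 2463 TPM and Rpl23a, which lies at the exit of the peptide tunnel, at 2445 TPM. At the other end, Rpl5, which carries 5S ribosomal RNA into the subunit, averaged 26.1 TPM, Rpl12, at the base of the stalk, 38.9 TPM, and Rps12 42.9 TPM. After these, Rpl27a at 254.8 TPM was the next lowest of the large subunit, and Rps20 at 288 TPM and Rps16 at 435 TPM were the next lowest of the small subunit. Processed pseudogenes named after the family, 311 in the table, took up 0.498 to 0.797% of all TPM in LPS lungs and 0.645 to 0.728% in Control lungs. For 6 core genes (Rpl28, Rps16, Rpl37, Rps23, Rpl31 and Rpl36a) the summed level of the pseudogenes was above that of the gene itself. Reads of near-identical copies can be split between them, so the levels of these 6 genes are uncertain. The summed pseudogenes came close to the gene for Rps12 (39.4 against 42.9 TPM), Rps13 (525 against 572 TPM) and Rpl15 (383 against 446 TPM). The levels of these genes carry the same doubt, as do ratios to Rpl36a. Copies under other names, or among the 21883 genes without a symbol, were not summed. Low levels such as those of Rpl5 and Rpl12 are therefore not cleared of this doubt.

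As a block, the core genes supplied more of the lung's transcripts after the low and the high dose of AEAA than after LPS alone. From no extract to the highest dose, they made up 8.37, 7.52, 8.39, 8.28 and 7.66% of TPM in LPS lungs, 9.69, 9.47, 10.1, 10.3 and 9.92% in AEAA low-dose lungs, 9.36, 9.18, 7.95, 8.53 and 7.76% in AEAA mid-dose lungs and 8.93, 11.7, 10.9, 10.3 and 11.3% in AEAA high-dose lungs. All 5 low-dose and all 5 high-dose libraries lay above all 5 LPS libraries, and the mid-dose libraries lay partly among the LPS libraries and all below the low dose. In whole tissue, fewer cells of a type and less RNA per cell cannot be told apart. Replicate 1 of the high dose, at 8.93%, stood closest to the LPS group. In Control lungs the share was 7.2, 7.93, 7.03 and 6.91%, and 1 Control library lay inside the range of the LPS group. This share depends on Scgb1a1, the secretoglobin of airway club cells, which alone took 3.13 to 6.46% of TPM in LPS lungs and 23.2 to 35.5% in Control lungs. With Scgb1a1 taken out of the total, the core share was 7.95 to 8.95% in LPS lungs and 9.41 to 11.2% in Control lungs, so that every LPS library was below every Control library. With the same change it was 10.4 to 10.9% in AEAA low-dose, 8.18 to 10% in AEAA mid-dose and 9.75 to 12.2% in AEAA high-dose lungs, and the low and high doses again lay wholly above the LPS group.

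The balance of large to small subunit was higher in LPS lungs than in Control lungs by a small margin. The ratio of summed large-subunit to small-subunit TPM, which no rescaling of a library can alter, was 1.24, 1.22, 1.25, 1.23 and 1.31 in LPS lungs and 1.17, 1.18, 1.18 and 1.18 in Control lungs, with no overlap. It was 1.18 to 1.24 in AEAA low-dose, 1.2 to 1.25 in AEAA mid-dose and 1.18 to 1.24 in AEAA high-dose lungs. The low and high doses overlapped both the LPS and the Control group, and the mid dose lay above all Control libraries. Replicate 5 of the LPS group had the highest ratio of all, 1.31. The ratio is weighted toward the abundant genes of each subunit.

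**Figure D1:**
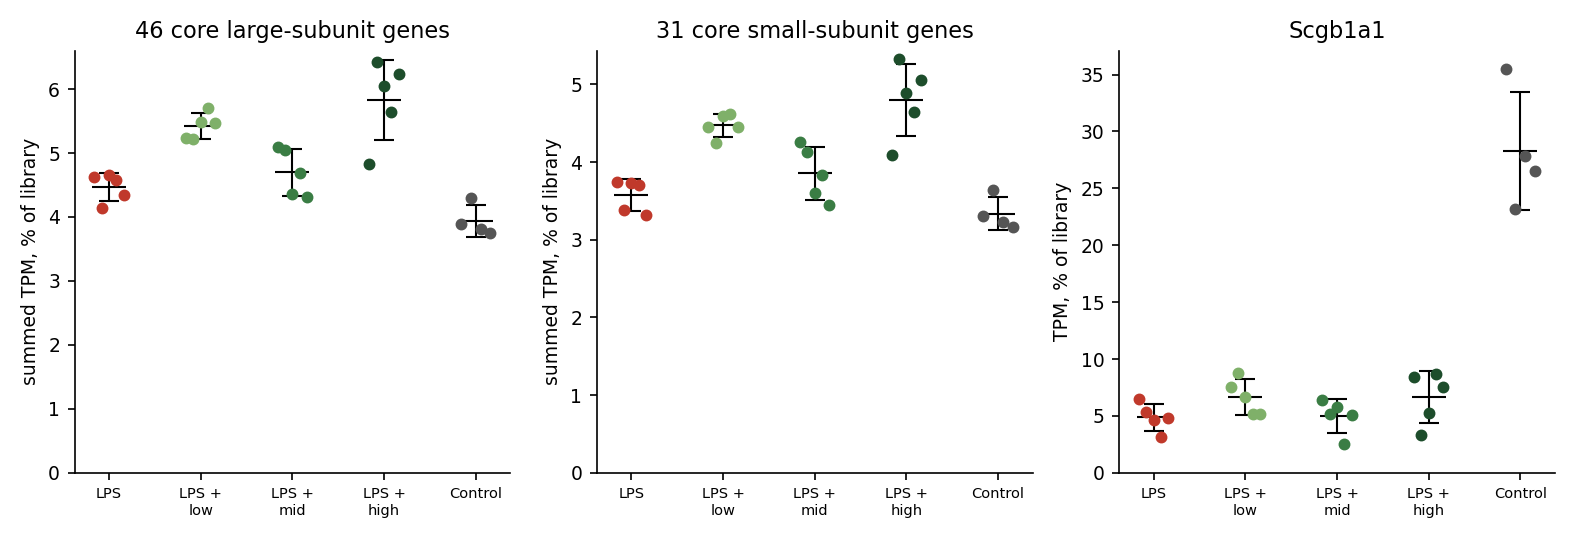
Summed TPM of the 46 core large-subunit genes, of the 31 core small-subunit genes and TPM of Scgb1a1, each as a percentage of the library (y axes), by group (x axes: LPS, LPS with the low, mid or high dose of AEAA, Control); points are libraries, bars the mean ± SD. The large subunit spans 5.22 to 5.71% with the low dose and 4.83 to 6.42% with the high dose, against 4.13 to 4.66% in LPS lungs, and Scgb1a1 spans 3.13 to 6.46% in LPS against 23.2 to 35.5% in Control lungs.

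LPS against Control asks how the challenge alone altered the family. On the TPM as deposited, 31 of the 77 core genes rose and 6 fell, but none rose and 49 fell once each library was divided by its median-of-ratios factor (1.08 to 1.28 in LPS and 0.648 to 0.809 in Control lungs), so the direction of the family depends on the scaling. Of the 17823 genes tested, 56.2% were called higher and 1.86% lower as deposited, with a median log2 fold change of 0.55, and 14.2% were called higher and 13.7% lower after scaling. The median of the core genes, 0.18 as deposited and -0.48 after scaling, was below that of all genes (0.02 after scaling) on both scales. With Scgb1a1 removed from the total, 7 core genes were called higher and 36 lower, beside 31% and 5.76% of all genes. The large subunit (22 of 46 higher, 3 lower) and the small subunit (9 of 31 higher, 3 lower) had medians of 0.22 and 0.15 as deposited, and -0.44 and -0.51 after scaling.

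The members did not move alike, and a scaling factor shifts all members of a library together, so it leaves the differences between members nearly as they are. Among core genes, the 5 largest increases as deposited were Rplp0, Rps2, Rpl12, Rpl10 and Rpl3. Rplp0 encodes the protein that anchors the stalk, and its level was 1508, 1271, 1702, 1406 and 1697 TPM in LPS lungs and 712, 787, 698 and 733 TPM in Control lungs, a log2 fold change of 1.04 ± 0.12 (SE, adjusted p = 3.35e-07). Every LPS library was above every Control library. After scaling, the change of Rplp0 was 0.39 with an adjusted p of 0.0681, so it no longer passed. Rps2, a protein of the mRNA entry region, was at 1813, 1171, 1755, 1427 and 1731 TPM in LPS lungs and at 796, 809.5, 777 and 809 TPM in Control lungs (log2 fold change 0.97 ± 0.18, adjusted p = 8.86e-05). The 4 Control values of Rps2 lay close together while its LPS values spread widely, again without overlap. Rpl10, a protein added late in the assembly of the large subunit, was at 752, 1129.5, 876, 1153 and 844 TPM in LPS lungs and at 489, 591, 541 and 525 TPM in Control lungs, with LPS replicates 2 and 4 highest (log2 fold change 0.81 ± 0.12, adjusted p = 4.81e-06). Rpl12 averaged 40.1 ± 4.24 TPM in LPS lungs and 21.8 ± 3.71 TPM in Control lungs (SD), a log2 fold change of 0.86 ± 0.15 with an adjusted p of 5.78e-05. Rpl3, next to the peptidyl transferase centre, averaged 808 ± 98.1 TPM in LPS lungs and 476 ± 20.5 TPM in Control lungs, a log2 fold change of 0.75 ± 0.10 with an adjusted p of 1.08e-06. After scaling none of these 5 genes passed (log2 fold changes of 0.10 to 0.39), whereas Rplp0, Rpl10 and Rpl3 passed once the trend on transcript length was removed (adjusted p = 0.00285, 0.00968 and 0.0309).

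Rplp2, Rps21, Rpl37a, Rpl35a and Rps28 had the 5 lowest fold changes among core genes and were called lower both as deposited and after scaling. Rplp2, the partner of Rplp1 in the stalk, was at 624, 678, 532, 551 and 495 TPM in LPS lungs and at 822, 922, 751 and 711 TPM in Control lungs (log2 fold change -0.48 ± 0.15, adjusted p = 0.0108; -1.13 after scaling). All LPS values of Rplp2 were below all Control values. Rps21 was at 1867, 1549.8, 1536, 1617 and 1436 TPM in LPS lungs and at 2284, 2414, 2179 and 1988 TPM in Control lungs, again without overlap, with a log2 fold change of -0.47 ± 0.11 and an adjusted p of 0.00111. Rpl37a averaged 732 ± 42 TPM in LPS lungs and 981 ± 92.1 TPM in Control lungs, and Rpl35a 1285 ± 109.8 TPM in LPS lungs and 1698 ± 141 TPM in Control lungs. The groups overlapped for Rps28, which encodes a small protein of the mRNA exit region. It averaged 757 ± 119 TPM in LPS lungs and 950.2 ± 97 TPM in Control lungs (log2 fold change -0.34 ± 0.13, adjusted p = 0.0284), and its call was lost on leaving out any of 5 libraries. These were Control replicates 1 and 2 and LPS replicates 2, 4 and 5, with adjusted p of 0.0747, 0.0896, 0.0525, 0.0658 and 0.0689.

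Transcript length ran along with this order. The 77 core genes were divided into 3 classes (short, middle and long) by annotated transcript length, and on the TPM as deposited the 26 short ones (368 to 612 nt) had a median log2 fold change of -0.10 in LPS against Control, the 25 middle ones 0.37 and the 26 long ones (854 to 3706 nt) 0.30. After scaling the medians were -0.76, -0.28 and -0.34, and 24 of the 26 short ones were called lower. The mean log2 TPM of the long class minus that of the short class was -1.02, -0.749, -0.864, -0.814 and -0.888 in LPS lungs and -1.33, -1.27, -1.26 and -1.25 in Control lungs, without overlap. It was -1.17 to -1.12 in AEAA low-dose, -1.15 to -0.951 in AEAA mid-dose and -1.21 to -1.07 in AEAA high-dose lungs. Other genes showed a length trend as well, over a wider range of lengths. Tested genes outside the family were divided into 10 length classes. As deposited, their median log2 fold change in LPS against Control was 0.36 in the shortest class (median 483 nt) and 0.68 in the longest (median 5824 nt). The next shortest classes (medians 764 and 1047 nt) both had 0.46. After scaling these 3 short classes had -0.06, -0.07 and -0.10, and the longest 0.13. The long core class had a median length of 1005 nt. Over the 3 short classes of other genes, the medians were 0.36, 0.46 and 0.46 as deposited and did not rise with length after scaling. Those classes were not matched to the core genes on level. When a smooth trend on length was taken out of every library, 5 core genes were called higher and 35 lower in LPS lungs (17.3% and 14.5% of the 16407 genes with a length), and the short class again had the lowest median, -0.41. What part of the order within the family goes with length in the RNA or in its measurement was not tested.

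**Figure D2:**
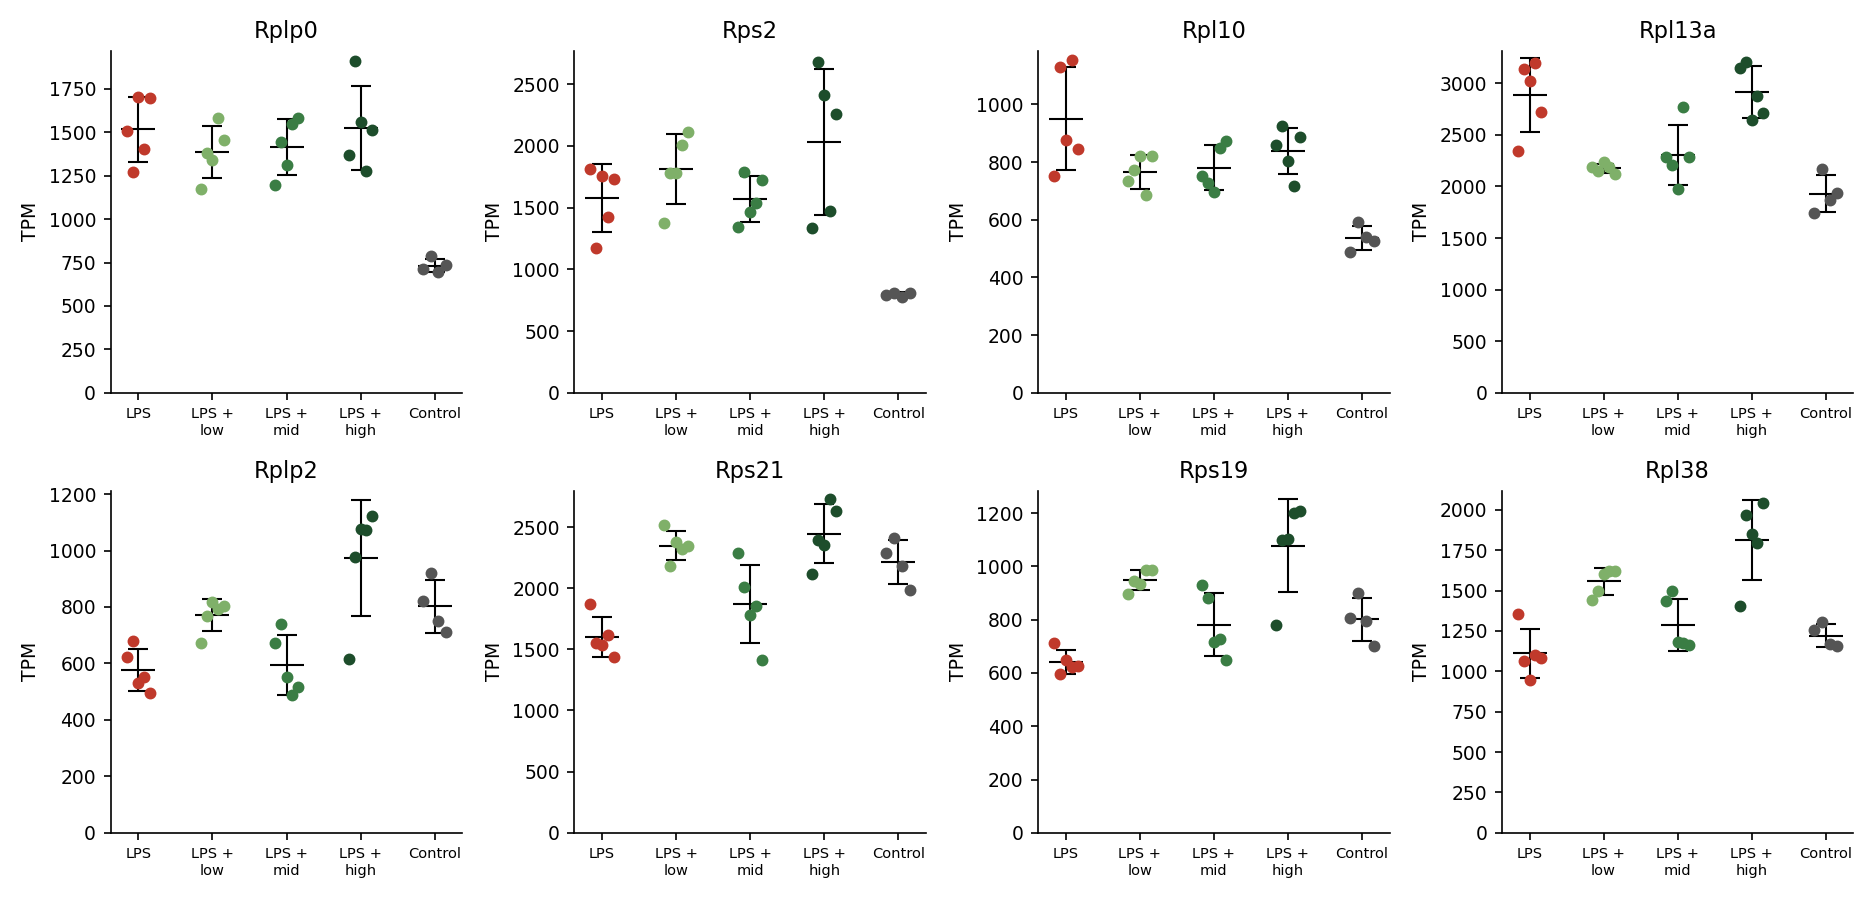
TPM (y axes, from 0) of 8 members by group (x axes: LPS, LPS with the low, mid or high dose of AEAA, Control); points are libraries, bars the mean ± SD. Rplp0, Rps2 and Rpl10 in the upper row are higher in every LPS library than in every Control library, Rplp2 and Rps21 in the lower row are lower in every LPS library, and Rps19 and Rpl38 in the high-dose group lie above all LPS values; these are TPM as deposited, and for Rplp0, Rps2 and Rpl10 the difference between LPS and Control did not pass after scaling.

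The low dose of AEAA against LPS alone asks how the extract altered the challenged lung. At the low dose, 37 of the 77 core genes rose and 1 fell, with a median log2 fold change of 0.32, while 1.23% of all genes tested were called higher and 9.38% lower, with a median of -0.20. After scaling 45 core genes rose and none fell (median 0.55), beside 1.62% and 0.488% of all genes. The large subunit had 20 of 46 higher and the small subunit 17 of 31. With the trend on length taken out, 19 core genes rose and 1 fell, against 0.542% and 0.226% of all genes with a length. Single LPS libraries moved the count: of all 84 members tested 40 rose, and 24 or 25 did without LPS replicate 5 or 4. Shares over all genes are not given for these smaller fits.

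Rplp1 had the largest increase of any core gene at the low dose, at 3426, 3465, 3761, 4169 and 3807 TPM in AEAA low-dose lungs and 2692, 1784, 2322, 2112 and 2257 TPM in LPS lungs. The groups did not overlap, and the log2 fold change was 0.75 ± 0.14 (adjusted p = 0.012). Rpl34 followed at 1567, 1525, 1539, 1641 and 1549.8 TPM in AEAA low-dose lungs and 1152, 920.1, 1041, 1048 and 919 TPM in LPS lungs (fitted log2 fold change 0.63 ± 0.12, adjusted p = 0.0123). Rpl36, Rpl39 (a very short protein that lines the peptide tunnel) and Rpl35a had log2 fold changes of 0.61 ± 0.14, 0.60 ± 0.13 and 0.58 ± 0.12, with adjusted p of 0.0137, 0.0139 and 0.0123. The core gene that fell was Rpl13a, at 2192, 2151, 2236, 2187 and 2118 TPM in AEAA low-dose lungs and 2339, 3132, 3026, 3199.7 and 2725 TPM in LPS lungs (fitted log2 fold change -0.40 ± 0.10, adjusted p = 0.0201). Rpl13a encodes a surface protein of the large subunit that also takes part in translational silencing of inflammatory mRNAs, and its 5 low-dose values lay within a narrow band below all LPS values. After scaling its change was -0.17 (adjusted p = 0.343), and its call as deposited was lost without LPS replicate 4 (adjusted p = 0.0537). Rpl10, Rpl4, Rplp0 and Rpl5 were the other 4 lowest core genes and did not pass, with log2 fold changes of -0.29 ± 0.11, -0.15 ± 0.08, -0.13 ± 0.11 and -0.10 ± 0.12. Rpl10 passed without LPS replicate 1 (adjusted p = 0.0292).

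**Figure D3:**
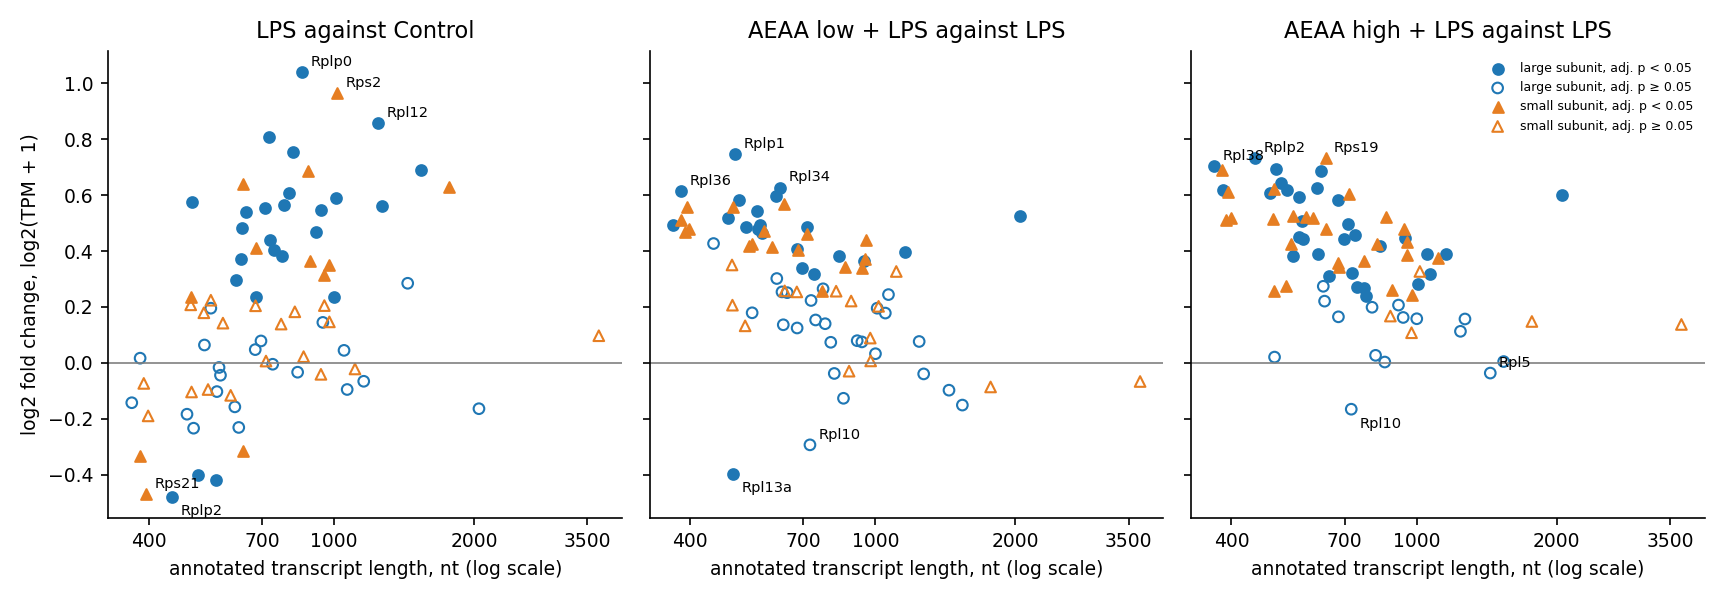
Log2 fold change of each core member on log2(TPM + 1), as deposited (y axis), against its annotated transcript length in nt (x axis, log scale), for LPS against Control, AEAA low dose against LPS and AEAA high dose against LPS; circles are large-subunit and triangles small-subunit genes, filled where the adjusted p is under 0.05. In LPS against Control the short class lies lowest (median -0.10, and -0.76 after scaling), and in both dose comparisons it lies highest (0.48 and 0.52); the 3 comparisons share the LPS libraries. Genes outside the family, not drawn, also had higher medians when short: -0.05 in the shortest and -0.32 in the longest length class at the low dose, and -0.14 and -0.44 at the high dose.

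The mid dose gave no call. None of the 77 core genes, and 0% of all genes in either direction, passed against LPS alone, as deposited or after scaling, and the median log2 fold change of the core genes was 0.07 (0.12 after scaling). Among core genes, the widest differences were Rpl36 at 0.35 ± 0.14, Rplp1 at 0.32 ± 0.14, Rps15a at 0.27 ± 0.11, Rps19 at 0.27 ± 0.11 and Rps27 at 0.27 ± 0.10 on the positive side. On the negative side they were Rps20 at -0.42 ± 0.17, Rpl13a at -0.32 ± 0.10, Rpl10 at -0.27 ± 0.11, Rpsa, the laminin receptor and small-subunit protein, at -0.18 ± 0.10 and Rpl15 at -0.13 ± 0.10. The adjusted p was 1 for all 10. Rplp1 was at 3257, 3203, 2534, 2546 and 2354 TPM in AEAA mid-dose lungs, replicates 1 and 2 lying above all LPS libraries and the other 3 among them. Rps19 was at 928, 881, 718, 727 and 650.4 TPM in AEAA mid-dose lungs, where replicate 5 alone lay among the LPS values.

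The high dose moved most of the family. Of the 77 core genes, 57 rose and none fell against LPS alone, with a median log2 fold change of 0.39, where 2.05% of all genes were called higher and 25.5% lower with a median of -0.27. After scaling 70 rose and none fell (median 0.71), beside 5.66% and 3.07% of all genes. With the trend on length taken out 62 rose and none fell, beside 3.41% and 2.7% of all genes with a length. The large subunit had 31 of 46 higher and the small subunit 26 of 31, with medians of 0.39 and 0.42. By length, 25 of the 26 short, 19 of the 25 middle and 13 of the 26 long members rose. Outside the family the share called higher as deposited also fell with length. It was 7.73, 3.75 and 2.09% in the classes with medians of 483, 764 and 1047 nt, and 0.123% in the longest class. When the spread was estimated from the high-dose and LPS groups alone, the count over all 84 members tested was 35 in place of 60. That fit's share over all genes is not given here.

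Rps19, a small-subunit protein needed for the maturation of its ribosomal RNA and mutated in Diamond-Blackfan anaemia, had the largest increase of any core gene at the high dose. Its level was 780.3, 1099, 1104, 1199 and 1207 TPM in AEAA high-dose lungs and 712, 596, 647, 624 and 628 TPM in LPS lungs. All high-dose values lay above all LPS values, replicate 1 being the lowest, and the log2 fold change was 0.73 ± 0.11 (adjusted p = 0.000999; 1.06 after scaling). Rplp2 was at 617, 976, 1075, 1073 and 1121 TPM in AEAA high-dose lungs, of which replicate 1 alone fell within the range of the LPS group, and its log2 fold change was 0.73 ± 0.15 (adjusted p = 0.00214). Rpl38 was at 1402, 1971, 1854, 1798 and 2045 TPM in AEAA high-dose lungs and 1357, 1067, 947, 1104 and 1084 TPM in LPS lungs (fitted log2 fold change 0.70 ± 0.11, adjusted p = 0.000942). Rpl38 is known in mouse for a role in the translation of Hox mRNAs, and its groups did not overlap. Rplp1 and Rps28 had log2 fold changes of 0.69 ± 0.14 and 0.69 ± 0.12, with adjusted p of 0.00204 and 0.00142. The 5 lowest core genes were Rpl10, Rpl5, Rplp0, Rpl4 and Rpl13a, none of which passed as deposited (log2 fold changes of -0.17 ± 0.11, -0.04 ± 0.12, 0.00 ± 0.11, 0.00 ± 0.08 and 0.02 ± 0.10). After scaling Rpl4 and Rpl13a passed, at 0.33 (adjusted p = 0.016) and 0.35 (adjusted p = 0.0139).

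None of the core genes passed in high against low dose on the TPM as deposited, where 0% of all genes were called higher and 0.00561% lower, and the median was 0.09. At an adjusted p of 0.0347 after scaling, Rpl13a was the single member called, where 0.0168% of all genes were called higher and 0.00561% lower. Rpl13a was at 3148, 3200.3, 2642, 2879 and 2707 TPM in AEAA high-dose lungs and 2192, 2151, 2236, 2187 and 2118 TPM in AEAA low-dose lungs, without overlap. Its log2 fold change was 0.42 ± 0.10 as deposited (adjusted p = 0.131) and 0.51 after scaling. Rplp2, Rps3a1, Rpsa and Rps15a followed among core genes at 0.31 ± 0.15, 0.23 ± 0.09, 0.23 ± 0.10 and 0.22 ± 0.11, and Rps26, Rplp1, Rpl23a, Rpl30 and Rps13 were lowest at -0.06 ± 0.11, -0.05 ± 0.14, -0.03 ± 0.09, -0.02 ± 0.10 and -0.01 ± 0.13, none of them called.

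**Figure D4:**
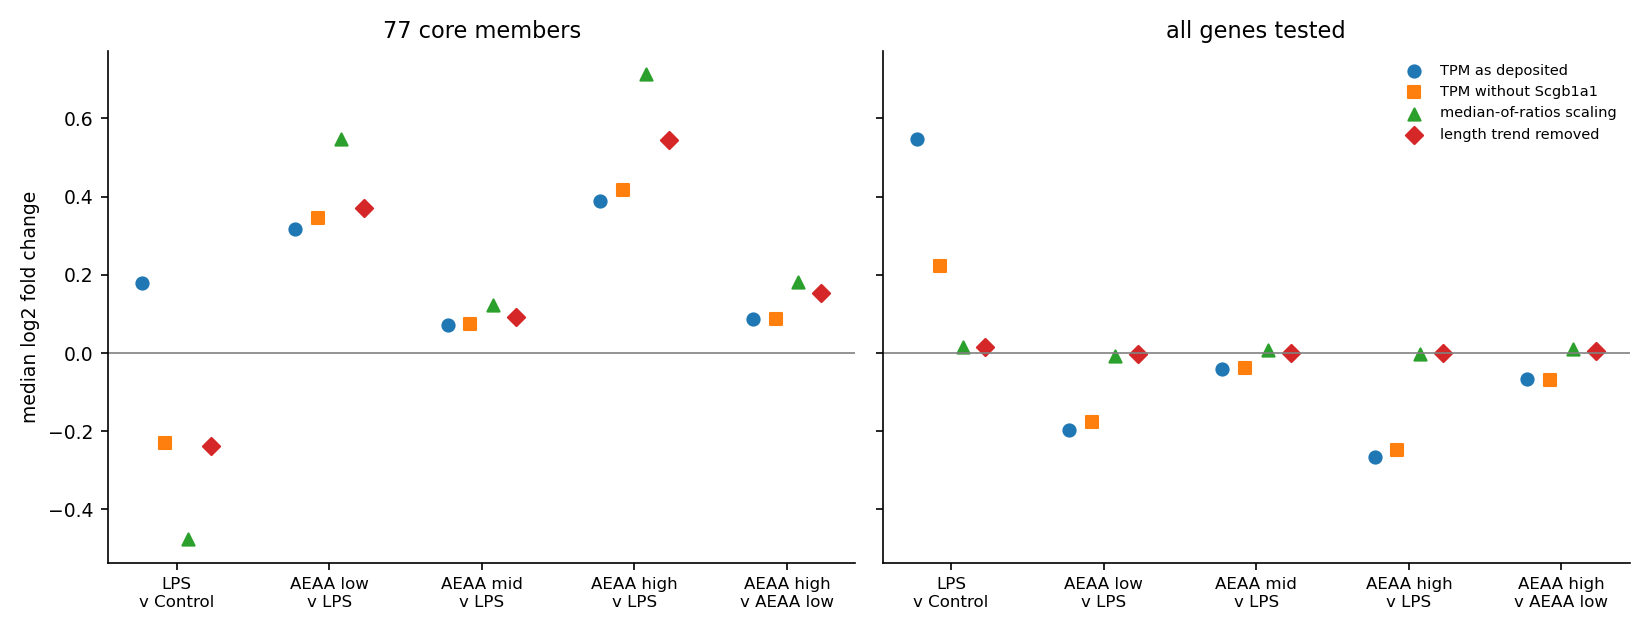
Median log2 fold change (y axes) of the 77 core members and of all genes tested in each comparison (x axes), from the TPM as deposited, TPM without Scgb1a1, median-of-ratios scaling and after removal of the trend on transcript length. In LPS against Control the core median is 0.18 as deposited and -0.23, -0.48 and -0.24 under the other 3, while in high dose against LPS it stays between 0.39 and 0.71.

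The paralogues and retrogenes did not follow one pattern. Rpl22l1, whose protein can take the place of Rpl22, was at 237, 174, 162, 178 and 129 TPM in LPS lungs and 315, 318, 278 and 249 TPM in Control lungs, all LPS values lying below all Control values. It fell by more than any core gene after LPS (log2 fold change -0.74 ± 0.18, adjusted p = 0.00108). It was 20.7 to 29.6% of Rpl22 in LPS lungs and 32.8 to 40.1% in Control lungs, a ratio that no scaling alters. Rpl22 itself averaged 719 ± 66 TPM in LPS lungs and 805 ± 61.9 TPM in Control lungs (log2 fold change -0.16 ± 0.11, adjusted p = 0.209). On the log2 scale Rpl22l1 rose in both dose groups against LPS, by 0.70 ± 0.17 at the low dose (adjusted p = 0.0183) and 0.84 ± 0.17 at the high dose (adjusted p = 0.00214). Its low-dose call was lost without LPS replicate 5 (adjusted p = 0.0515). Its ratio to Rpl22 was 23.7 to 32.3% in AEAA low-dose and 24.5 to 32.8% in AEAA high-dose lungs and overlapped that of LPS lungs.

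Rpl7l1, whose protein acts in assembly of the large subunit, went the other way. It was at 52.5, 70.5, 71.3, 65.8 and 65.8 TPM in LPS lungs and 25, 31.1, 28.1 and 31.4 TPM in Control lungs, without overlap, and its log2 fold change of 1.14 ± 0.16 (adjusted p = 2.87e-06) passed after scaling too (0.50, adjusted p = 0.0423). It was the single member of all 84 tested that was called higher after scaling. It was 6.17 to 8.14% of Rpl7 in LPS lungs and 3.28 to 4.11% in Control lungs. Rpl7 averaged 923 ± 89.3 TPM in LPS lungs and 782 ± 32 TPM in Control lungs (log2 fold change 0.23 ± 0.08, adjusted p = 0.013; -0.42, adjusted p = 0.00197, after scaling). Against LPS the log2 fold change of Rpl7l1 was -0.41 ± 0.15 at the low dose (adjusted p = 0.0764) and -0.32 ± 0.15 at the high dose (adjusted p = 0.112). Neither passed, although the low-dose change did without LPS replicate 1 (adjusted p = 0.0435).

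Rps27l, a p53 target in human and mouse cells, averaged 290.4 ± 30.8 TPM in LPS lungs and 284 ± 26.3 TPM in Control lungs (log2 fold change 0.03 ± 0.14, adjusted p = 0.876; -0.62, adjusted p = 0.0206, after scaling). On the log2 scale it rose by 0.66 ± 0.14 at the low dose (adjusted p = 0.0123) and 0.71 ± 0.14 at the high dose (adjusted p = 0.00189). Rpl36al, nearly identical in product to Rpl36a, had log2 fold changes of 0.18 ± 0.17 in LPS against Control, 0.53 ± 0.16 at the low dose (adjusted p = 0.0438) and 0.54 ± 0.16 at the high dose (adjusted p = 0.0196). Both calls of Rpl36al were lost on leaving out single libraries, with adjusted p up to 0.104 at the low and 0.0657 at the high dose. The libraries were LPS replicates 2, 3, 4 and 5 and low-dose replicates 2, 3, 4 and 5 for the low dose, and LPS replicates 2 and 4 and high-dose replicates 2, 3 and 5 for the high dose. Rpl36al was at 78.3 to 101% of Rpl36a in LPS lungs and 63.9 to 73.6% in Control lungs, without overlap.

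Rps4l, a copy of Rps4x, averaged 34.4 ± 3.48 TPM in LPS lungs and 20.8 ± 2.63 TPM in Control lungs (log2 fold change 0.70 ± 0.16, adjusted p = 0.000857; 0.07, adjusted p = 0.805, after scaling). Rps19bp1 averaged 35.8 ± 4.64 TPM in LPS lungs and 21.8 ± 2.66 TPM in Control lungs (log2 fold change 0.69 ± 0.16, adjusted p = 0.000923; 0.06, adjusted p = 0.84, after scaling). Neither passed against LPS at any dose. Rpl3l, the striated-muscle paralogue of Rpl3, was at 10.4, 0.2, 7.44, 0.53 and 0.29 TPM in LPS lungs and 0.12, 0.2, 0.87 and 0.33 TPM in Control lungs. Its log2 fold change was 1.13 ± 0.53 (adjusted p = 0.0723), and it passed without LPS replicate 2, 4 or 5 (adjusted p = 0.023, 0.0385 and 0.0269). LPS replicates 1 and 3 alone were high, and the summed skeletal muscle markers ran from 9.57 to 3198 TPM in LPS lungs and from 13.9 to 29.1 TPM in Control lungs, with LPS replicates 1 and 3 again the highest at 3198 and 2063 TPM. Rpl39l and Rps23rg1 averaged 0.246 and 0.135 TPM and Rpl10l was listed at 0 in all 24 libraries, so these 3 were under the filter and were not tested.

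**Figure D5:**
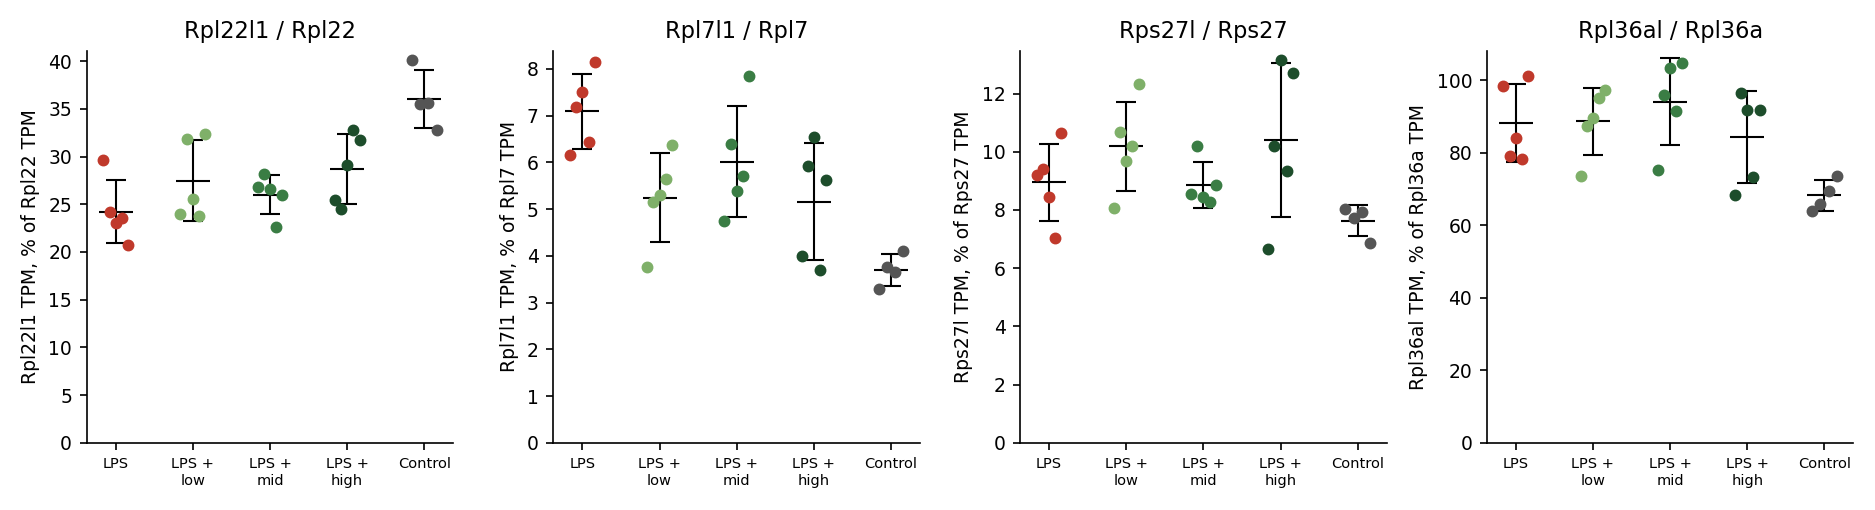
TPM of 4 paralogues as a percentage of the TPM of their core partner (y axes, from 0) by group (x axes: LPS, LPS with the low, mid or high dose of AEAA, Control); points are libraries, bars the mean ± SD. Rpl22l1 lies at 20.7 to 29.6% of Rpl22 in LPS against 32.8 to 40.1% in Control lungs, and Rpl7l1 at 6.17 to 8.14% of Rpl7 in LPS against 3.28 to 4.11% in Control lungs.

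Some genes belong to the ribosome under other names. Fau encodes a small-subunit protein fused to a ubiquitin-like one, and Rack1 is a scaffold on the small subunit. Fau averaged 284 ± 39.2 TPM in AEAA high-dose lungs and 195 ± 29 TPM in LPS lungs (fitted log2 fold change 0.54 ± 0.12, adjusted p = 0.00346). Rack1 rose as deposited in LPS against Control, at 717 ± 70.4 TPM in LPS lungs and 426 ± 30.9 TPM in Control lungs (0.75 ± 0.09, adjusted p = 7.92e-07), but not after scaling (0.09, adjusted p = 0.591).

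Other mRNAs with a TOP tract, 21 genes of translation factors and related proteins that include Fau and Rack1, were counted in the same way. At the high dose 3 of the 21 rose and 2 fell as deposited (median 0.002), beside 2.05% and 25.5% of all genes. After scaling 11 rose (median 0.33), beside 5.66% of all genes. The core genes had medians of 0.39 as deposited and 0.71 after scaling. Fau was among the 3 that rose, as was Eef1b2, a subunit of an elongation factor complex (0.48 ± 0.14, adjusted p = 0.0134). Pabpc1, the poly(A)-binding protein, fell at the low dose (-0.48 ± 0.12, adjusted p = 0.0208; -0.25, adjusted p = 0.203, after scaling), as did Eef2, which moves the ribosome along (-0.47 ± 0.14, adjusted p = 0.0376; -0.25, adjusted p = 0.311, after scaling). They were the 2 of the 21 that fell there, a count near the 9.38% of all genes called lower. In LPS against Control, where 56.2% of all genes were called higher with a median of 0.55, 18 of the 21 rose as deposited (median 0.52). Pabpc1 (1.10 ± 0.13), Eif3l (1.04 ± 0.11) and Eef1g (0.91 ± 0.09) led them. After scaling 2 rose and 7 fell, beside 14.2% and 13.7% of all genes. No member of the list passed at the mid dose or in high against low dose.

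Of 36 ribosome biogenesis genes, 35 were called higher in LPS against Control as deposited (median 0.99), beside 56.2% of all genes (median 0.55). After scaling 16 were called higher and 1 lower (median 0.37), beside 14.2% and 13.7% of all genes. Bop1, needed for processing of large-subunit RNA, averaged 31.5 ± 6.47 TPM in LPS lungs and 9.23 ± 1.66 TPM in Control lungs (1.66 ± 0.20, adjusted p = 6.81e-07; 1.05 after scaling, adjusted p = 0.0017). Mybbp1a averaged 48.8 ± 5.1 TPM in LPS lungs and 15.9 ± 2.1 TPM in Control lungs (1.56 ± 0.18), and Ddx21, a nucleolar helicase, 36.8 ± 5.49 TPM in LPS lungs and 11.9 ± 2.02 TPM in Control lungs (1.55 ± 0.22). Against LPS, 6 of the 36 fell at the low dose and 5 at the high dose as deposited, where 9.38% and 25.5% of all genes were called lower, so the high-dose count is no more than the background. Among them were Polr1b, a subunit of RNA polymerase I, at -0.55 ± 0.14 and -0.61 ± 0.14, and Nolc1 at -0.58 ± 0.17 and -0.49 ± 0.17. After scaling none of the 36 fell at either dose, and 0 rose at the low dose and 2 at the high dose.

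Among 19 genes of mTORC1, LARP1 and MYC control, 15 rose after LPS as deposited (median 0.85), and 9 rose and 2 fell after scaling (median 0.37). The shares over all genes were 56.2% higher as deposited, and 14.2% higher and 13.7% lower after scaling. Myc averaged 26.8 ± 5.66 TPM in LPS lungs and 4.15 ± 0.874 TPM in Control lungs (2.42 ± 0.25, adjusted p = 1.46e-07; 1.85, adjusted p = 0.000118, after scaling). Mxd1, an antagonist of MYC, averaged 35.4 ± 13.5 TPM in LPS lungs and 9.4 ± 0.773 TPM in Control lungs (1.72 ± 0.55, adjusted p = 0.011; 1.11, adjusted p = 0.16, after scaling). Larp1 averaged 36.2 ± 4.21 TPM in LPS lungs and 12.7 ± 1.63 TPM in Control lungs (1.44 ± 0.13, adjusted p = 4.68e-08; 0.82, adjusted p = 0.000166, after scaling). Against LPS, Larp1 fell as deposited at the low dose (-0.44 ± 0.12, adjusted p = 0.0305) and at the high dose (-0.57 ± 0.12, adjusted p = 0.00326), and neither change passed after scaling (adjusted p = 0.401 and 0.205). Tsc2, a brake on mTORC1, fell at the high dose on both scales (-0.86 ± 0.19, adjusted p = 0.00342; -0.55, adjusted p = 0.0214, after scaling), and Rptor, the subunit that defines mTORC1, fell as deposited alone (-0.60 ± 0.12, adjusted p = 0.00265). In all, 3 of the 19 fell at the low dose and 7 at the high dose as deposited, beside 9.38% and 25.5% of all genes, and after scaling none changed at the low dose while 2 rose and 1 fell at the high dose.

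Many cell type markers moved after LPS, and few passed in the dose comparisons. In LPS against Control, where 56.2% of all genes were called higher as deposited and 14.2% after scaling, all 10 neutrophil markers rose (8 after scaling), their summed level being 568 to 12810 TPM in LPS lungs and 122 to 191 TPM in Control lungs, while Ly6g was at 0 in some libraries. As deposited, 7 of 10 monocyte and macrophage, 5 of 8 T and NK cell, 4 of 6 B cell and 4 of 5 endothelial markers rose as well, and after scaling 2, 0, 1 and 2 did. Of 5 club cell markers 4 fell, with sums of 34060 to 67180 TPM in LPS lungs and 241200 to 366700 TPM in Control lungs. Of 6 alveolar type II markers 2 rose as deposited, and 1 rose and 1 fell after scaling. Of 5 erythroid markers 1 rose as deposited and 0 after scaling. None of the 10 neutrophil or 10 monocyte and macrophage markers passed at either the low or the high dose against LPS. The summed neutrophil markers ran from 1503 to 4011 TPM in AEAA low-dose and from 211 to 12040 TPM in AEAA high-dose lungs. With spreads this wide, the lack of calls does not show equal levels. At the high dose, 1 of 6 alveolar type II markers fell and 1 of 5 club cell markers rose on both scales, and 1 of 6 B cell markers fell as deposited alone. At the low dose, 1 of 6 alveolar type II markers fell as deposited alone, and 1 of 8 T and NK cell markers rose after scaling alone. Of 5 endothelial markers, 3 fell with the low, 0 with the mid and 4 with the high dose as deposited, and 0, 0 and 1 after scaling. The shares of all genes called lower were 9.38, 0 and 25.5% as deposited, and 0.488, 0 and 3.07% after scaling. The marker counts and the shares both shrank with scaling at the low and the high dose. After scaling, the median log2 fold change of the 5 endothelial markers was -0.19 at the low dose and -0.53 at the high dose. The medians of all genes were -0.008 and -0.002. The summed endothelial markers were at 1263 to 1855 TPM in LPS lungs, 978 to 1341 TPM in AEAA low-dose, 1281 to 1658 TPM in AEAA mid-dose and 918 to 1167 TPM in AEAA high-dose lungs, and none of the 5 was at 0 in any library. Cxcl2, a chemokine induced by LPS, was under 2 TPM in 7 of the 20 challenged libraries: LPS replicates 2 and 4, low-dose replicate 1, mid-dose replicates 1 and 4 and high-dose replicates 1 and 4. Without those 7 libraries, in a fit added after seeing the data, the count of members called higher was 66 at the high dose and 43 at the low dose. The share of all genes called in that fit is not given here, so these counts have no background beside them. The part of cell composition in the members' changes was not tested.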

How the data were processed

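RNA of 24 mouse lungs was sequenced on an Illumina instrument after removal of ribosomal RNA, per the labels' protocols. The submitters' processing notes name HISAT2, StringTie, RSEM, DESeq2 and GRCm39, without versions. The deposited table holds TPM, made by the authors; counts were not used here, so depth and counting error are unknown. Its columns sum to 999999 to 1000001.1, and no pair of libraries was identical.

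Members were found by name and biotype. The family, the pathway and marker lists and the tests were chosen with earlier results of these data known. Nothing in the labels says that replicates share a litter or batch, so p-values measure the spread between these samples.

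Genes with at least 1 TPM in at least 4 libraries (17823 genes, 84 members) were tested on log2(TPM + 1) with limma 3.58.1 in R 4.3.3, with 1 mean per group over all 24 libraries, mean-variance trend and robust variances, and Benjamini-Hochberg adjustment over all genes at 0.05. Every adjusted p in the text comes from such a fit, fold changes are on this scale and are understated for low genes, and the script was tested on simulated data. Scaled values divide each library by a median-of-ratios factor. Transcript lengths are medians over the transcripts of the GENCODE M21 annotation, and their trend was removed by lowess (span 0.3, 16407 genes). Pieces of RefSeq sequence are on GRCm38.p6, while the table's build is GRCm39.

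Named genes were all members outside the core, the 3 highest and 3 lowest core genes of each subunit by level, the 5 highest and 5 lowest fold changes of each comparison, the core partners of paralogues and the 3 largest passing genes of each list. The members whose sequences are printed were picked after their values were seen.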

Additional observations from a re-analysis of the deposited data

Results flagged for a closer look

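There were 225 sets of values, each a named member or a family measure in 1 group of 4 or 5 libraries. Of them, 9 held a library far from the others, a share no higher than the about 1 in 20 that chance gives. Sets from the same libraries are not independent. Of the 9, 5 were low values of replicate 1 of the AEAA high dose. That library had 28.7 TPM of Rpl12, 617 TPM of Rplp2, 424.5 TPM of Rpl39, 1151 TPM of Rpl34 and 780.3 TPM of Rps19. The same library had the lowest core share of its group, 8.93%, and 0.44 TPM of Cxcl2. Rpl3l was high in 1 low-dose library at 3.44 TPM and in 1 high-dose library at 1.26 TPM. Rps27l stood apart at 344 TPM in 1 LPS library, and Rps3a1 at 1376 TPM in 1 Control library.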

How the results depend on the processing

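Of the 84 members tested, 34 were called higher and 7 lower in LPS against Control as deposited. Median-of-ratios scaling, TPM without Scgb1a1 and removal of the length trend gave 1, 8 and 6 higher and 51, 38 and 36 lower, and medians of -0.47, -0.23 and -0.23 where it was 0.18 as deposited. Rps27l reversed to -0.62 after scaling and to -0.38 without Scgb1a1. These settings change the total or the length trend that each library is divided by. At the low dose against LPS (40 higher, 1 lower), 22 were higher with no filter on low values and 20 with the length trend removed, and none was lower after scaling or without the libraries low in Cxcl2, a setting added after seeing the data. At the high dose (60 higher, 0 lower), 35 were higher with the compared groups alone, and 1 was lower without the libraries low in Cxcl2. In high against low dose (0 higher), 1 member was higher after scaling, with the length trend removed and without the libraries low in Cxcl2. For no filter, the compared groups alone and the libraries low in Cxcl2 left out, the share of all genes called is not given. A changed count there cannot be told from changed calling over all genes. The cause of these changes was not tested.

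Leaving out 1 library at a time gave 30 to 38 higher and 5 to 7 lower in LPS against Control, 24 to 39 higher and 0 to 3 lower at the low dose, and 47 to 65 higher and 0 lower at the high dose. The low-dose extremes came without LPS replicate 5 (24 higher), LPS replicate 4 (25 higher, 0 lower) and LPS replicate 1 (3 lower). Shares over all genes are not given for these fits, so the counts cannot be set against them. With a pseudocount of 0.1, all 10 counts stayed within 1.5 times. With the replicate number as a block, 2 members were lower at the low dose and 1 at the high dose. Same-numbered libraries had deviations that correlated at -0.447 to 0.645, so the numbers were not taken as pairs. At the mid dose no member was called in any setting. With TPM alone, depth sets no stated limit.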
